A study of Saccharomyces cerevisiae with 24 samples.

Results

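The genes described here encode the nuclear subunits of the yeast oxidative phosphorylation system, that is, complexes II to V of the inner mitochondrial membrane and the electron carrier cytochrome c. They were taken by gene name from a list of 38 subunit genes, by the complex each belongs to. Of these, 37 carried values, out of 6304 genes with values in all: 4 genes of complex II, 8 of complex III, the 2 cytochrome c genes, 9 genes of complex IV and 14 of complex V. QCR9, a small subunit of complex III, has a row without values and was not analysed here. All 37 passed the filter on low values, a mean of at least 5 RPKM in the mRNA libraries and in the footprint libraries, as did 4888 genes in all. CYC7 passed only through its starved samples, in mRNA and in footprints.

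Complex II (succinate dehydrogenase) passes electrons from succinate to ubiquinone, complex III (the cytochrome bc1 complex) passes them on to cytochrome c, and complex IV (cytochrome c oxidase) hands them to oxygen. Complexes III and IV build a proton gradient across the inner membrane that drives complex V, the ATP synthase. Baker's yeast lacks the proton-pumping complex I, represses many respiratory genes on glucose, and keeps a handful of core subunits in its mitochondrial DNA, while the genes described here are translated in the cytosol and their products imported.

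The study asked how loss of sulfur acts on translation through methylation of 18S rRNA, which Dim1 carries out. Yeast of the CEN.PK background carried wild-type Dim1 (WT) or the Dim1 alleles E85Q or D87E. Each strain was taken in log phase, growing in medium free of sulfur apart from 1 mM added methionine, and after 2 h of starvation in that medium without methionine. Each of the 6 groups (3 genotypes, with and without methionine) holds 2 samples, from strains numbered 172 and 600 for WT, 623 and 625 for E85Q and 887 and 888 for D87E, and values below are given in that order, with methionine before without. An rRNA-depleted RNA library (mRNA) and a library of ribosome-protected fragments of 18 to 34 nucleotides (footprints) were made from the same sample. How the strains of a genotype were derived is not given in the sources used here. The p-values measure no more than the spread between the 2 strains of a group. That spread is pooled over the 6 groups and drawn toward that of other genes. Samples of the same strain in the 2 media are treated as independent.

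Values are RPKM (read counts scaled by gene length and by library size), which the authors normalized separately for mRNA and for footprints. Translation efficiency (TE) is the log2 footprint value minus the log2 mRNA value of the same sample, so only its differences between samples or genes are meaningful. Changes are on the log2(RPKM + 1) scale, which understates the change of the least expressed genes, and were tested with limma across the 4888 genes, a call being a Benjamini-Hochberg adjusted p below 0.05. From the steps between low values, libraries held an estimated 24.3 to 32.3 M (1e6) reads of mRNA and 21.3 to 81.4 M reads of footprints. CYC7 rested on 15 to 265 reads per mRNA library and every other member on at least 289 reads per library. RPKM give shares of a library, and a lower level per cell and a smaller share of the cell's RNA cannot be told apart. Cytosolic ribosomal protein genes took 29.2 to 31.9% of summed mRNA RPKM with methionine and 2.05 to 8.13% without. The median tested gene moved with starvation by 0.40 in WT, 0.14 in E85Q and 0.41 in D87E in mRNA (log2). In footprints the median gene moved by 0.23, 0.13 and 0.15, and in TE by -0.12, -0.00 and -0.23. Whether the share and these shifts are linked was not tested.

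With methionine, mRNA levels of the members in WT ran from 2.27 RPKM for CYC7, the minor cytochrome c, to 1019.7 RPKM for ATP2, the beta subunit of the ATP synthase head, with a median of 269. COX5B, the hypoxic form of a complex IV subunit (25.7 RPKM), and SDH1, the flavoprotein of succinate dehydrogenase (47.7 RPKM), were next to lowest. CYC1, the main cytochrome c (797 RPKM), and ATP1, the alpha subunit of the ATP synthase (616 RPKM), were next to highest. In footprints CYC1 led with 1623 RPKM, ahead of COX7 with 985 RPKM and ATP2 with 962 RPKM. The median TE of the members exceeded that of all tested genes of the same sample by 0.66 and 0.61 in WT, 0.74 and 0.66 in E85Q and 0.70 and 0.69 in D87E (log2), so these messages carried more footprints per mRNA than the typical gene in each sample with methionine.

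Starvation of WT lowered the mRNA of most respiratory subunit genes while their footprints per mRNA went up. In mRNA, 28 of 37 members fell and 4 rose (CYC7, COX5B, COX13 and QCR10), where 26.7% of all tested genes fell and 60.2% rose. The median member changed by -0.48 (log2), against 0.40 over all tested genes. In footprints 13 members fell and 11 rose, where 32.1% of all tested genes fell and 51.3% rose, with a median of 0.04 against 0.23. When the libraries were centred on their median gene, 18 members fell and 8 rose in footprints, where 1980 of the 4888 tested genes fell and 1988 rose. In TE 27 members rose and none fell, where 16.7% of all tested genes rose and 36.6% fell, and at an unadjusted p below 0.05 limma counted 28 higher and none lower. The median TE change was 0.43, against -0.12 over all tested genes. QCR10 lay at 0.29 in mRNA and at -0.11 after centring, so its direction in WT mRNA depends on the scaling. Some of the WT calls in each of mRNA, footprints and TE were lost when single libraries were left out.

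In E85Q few of these genes fell and more rose. In mRNA 13 members rose and 1 fell (CYC1), where 46.5% of all tested genes rose and 30.3% fell. The median was 0.18 against 0.14 over all tested genes. Centring on the median gene gave 9 higher and 3 lower (COR1, CYC1 and ATP4), where 1967 of the 4888 tested genes were higher and 1698 lower. In footprints 20 members rose and none fell, where 44.8% of all tested genes rose and 30.6% fell, with a median of 0.32 against 0.13, and at an unadjusted p below 0.05 limma counted 21 higher and 1 lower. In TE no member was called, where 1.92% of all tested genes rose and 4.28% fell, and limma counted 7 higher and none lower at an unadjusted p below 0.05. The part of the members that rose in E85Q was thus below the background in mRNA and not far above it in footprints, and what set them apart from the starved WT samples was the near absence of falls. These counts rest partly on single libraries. Without sample 625 with methionine 10 members rose in footprints, without the starved sample 623 the number was 11, and without that starved sample 8 rose in mRNA.

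In D87E 24 members fell in mRNA and 5 rose, where 25.5% of all tested genes fell and 60.7% rose, with a median of -0.32 against 0.41. Centring gave 31 lower and 2 higher (CYC7 and COX5B), where 2016 of the 4888 tested genes were lower and 1998 higher. In footprints 12 members rose and 11 fell, where 47.3% of all tested genes rose and 35% fell, with a median of 0.12 against 0.15. In TE 25 members rose and none fell, where 13.1% of all tested genes rose and 47.9% fell, with a median of 0.38 against -0.23, and limma counted none lower at an unadjusted p below 0.05. Some of the D87E calls in each measure were also lost when single libraries were left out. The plot of starvation changes by gene shows these members complex by complex.

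**Figure D1:**
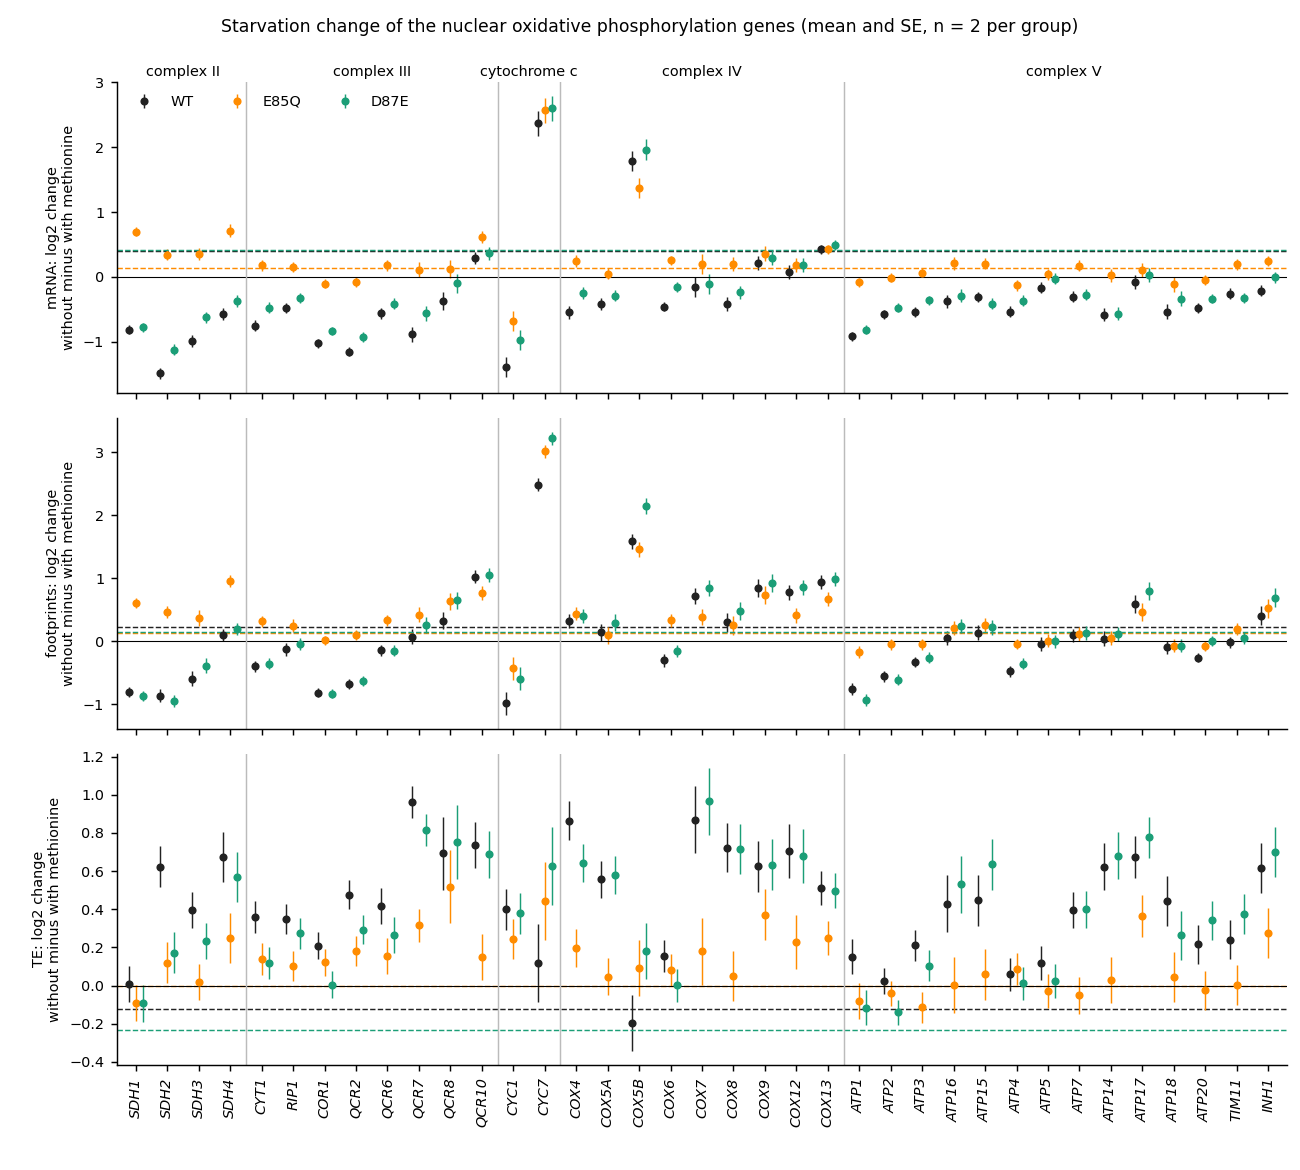
Log2 change on starvation (without minus with methionine) of the 37 members in mRNA, footprints and TE, with points for the fitted change and bars for its SE (n = 2 per group) in WT, E85Q and D87E, and a dashed line for the median of all tested genes in each genotype. In mRNA the WT and D87E points lie mostly below 0 and those of E85Q close to or above it, while CYC7 and COX5B stand far above the other members in all 3 genotypes.

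Complex II is the smallest of the complexes and the one whose mRNA response to starvation differed most between WT and E85Q, with no difference called between them with methionine. In WT all 4 genes fell in mRNA, with a median of -0.90, and 3 of 4 fell in footprints. In E85Q all 4 rose in mRNA and in footprints, and in D87E all 4 fell in mRNA and 3 in footprints. Of all tested genes 26.7% fell in WT mRNA and 32.1% in WT footprints, and 25.5% and 35% fell in D87E. In E85Q 46.5% of all tested genes rose in mRNA and 44.8% in footprints. SDH2 (YLL041C, chromosome XII, 53131 to 53931) encodes the iron-sulfur subunit that carries electrons from the flavin toward ubiquinone. Its mRNA stood at 127 and 132 RPKM with methionine and at 47.8 and 43.6 RPKM without in WT, at 143 and 137 and then 170 and 185 RPKM in E85Q, and at 109 and 125 and then 55.8 and 50.4 RPKM in D87E. Starved WT and D87E samples were thus the low ones, and the starved E85Q samples lay above every sample grown with methionine. SDH2 mRNA fell by 1.48 on the log2 scale in WT (SE 0.08, limma adjusted p = 4.2e-08), rose by 0.34 in E85Q (SE 0.08, limma adjusted p = 0.0036), and fell by 1.12 in D87E (SE 0.08, limma adjusted p = 3.6e-07). SDH2 footprints went from 189 and 192 RPKM to 109 and 100 RPKM in WT, from 238 and 201 to 319 and 285 RPKM in E85Q, and from 188 and 190 to 103 and 92.0 RPKM in D87E.

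SDH1 (YKL148C, chromosome XI, 169207 to 171129), the flavoprotein that oxidizes succinate, had 48.9 and 46.5 RPKM of mRNA with methionine and 26.5 and 26.9 RPKM without in WT, against 42.2 and 42.4 and then 69.9 and 68.4 RPKM in E85Q. D87E had 47.9 and 48.4 and then 30.1 and 25.6 RPKM. The groups with and without methionine did not overlap in any genotype, and the order was turned round in E85Q. SDH1 footprints moved with its mRNA, from 95.2 and 89.3 to 53.6 and 51.1 RPKM in WT and from 95.7 and 81.9 to 136 and 134 RPKM in E85Q, and its TE changed by 0.01 in WT (SE 0.10). SDH4 (YDR178W, chromosome IV, 817950 to 818495), 1 of the membrane anchors, differed from it in TE. SDH4 mRNA went from 50.4 and 52.8 to 33.9 and 34.8 RPKM in WT and from 56.0 and 51.0 to 95.5 and 81.8 RPKM in E85Q, while its footprints were 185 and 191 and then 201 and 204 RPKM in WT, and 215 and 187 and then 423 and 362 RPKM in E85Q. Starved E85Q samples were the high ones on both scales, and WT kept its SDH4 footprint level within a change of 0.10 (SE 0.09). The TE of SDH4 rose by 0.68 in WT (SE 0.13, limma adjusted p = 0.0015), and SDH3, the other anchor, rose in TE by 0.39.

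In complex III the core proteins fell most in WT mRNA, and the largest TE changes were those of small subunits. In WT 7 of 8 genes fell in mRNA and QCR10 rose, with a median of -0.66; 3 fell in footprints and 2 rose, and all 8 rose in TE. In E85Q 1 of 8 rose in mRNA and 6 rose in footprints, and in D87E 6 fell and 1 rose in mRNA. In WT 26.7% of all tested genes fell and 60.2% rose in mRNA, 32.1% fell and 51.3% rose in footprints, and 16.7% rose in TE. The shares that rose in E85Q were 46.5% in mRNA and 44.8% in footprints, and 25.5% fell and 60.7% rose in D87E mRNA. QCR2 (YPR191W, chromosome XVI, 919381 to 920487), a core protein on the matrix side of the complex, had 268 and 270 RPKM of mRNA with methionine and 128 and 114 RPKM without in WT, and 273 and 266 and then 254 and 256 RPKM in E85Q. D87E had 256 and 253 and then 140 and 128 RPKM. COR1 (YBL045C, chromosome II, 134143 to 135516), the other core protein, had 314 and 313 and then 158 and 150 RPKM in WT, and 346 and 314 and then 312 and 301 RPKM in E85Q. D87E had 294 and 303 and then 165 and 169 RPKM. For both core proteins the starved WT and D87E samples were the low ones. QCR2 mRNA fell by 1.15 (SE 0.07, limma adjusted p = 8.6e-08) and COR1 mRNA fell by 1.02 (SE 0.07, limma adjusted p = 1.4e-07) in WT, and in E85Q the changes were -0.08 and -0.11, neither called. Their footprints also fell in WT. QCR2 footprints went from 438 and 418 to 277 and 259 RPKM in WT and from 439 and 419 to 467 and 455 RPKM in E85Q. COR1 footprints went from 403 and 405 to 231 and 228 RPKM in WT and from 437 and 406 to 442 and 410 RPKM in E85Q. The WT TE rose by 0.48 for QCR2 (SE 0.08, limma adjusted p = 0.00054) and by 0.21 for COR1 (SE 0.07, limma adjusted p = 0.030). The COR1 TE call was lost when single libraries were left out.

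The catalytic subunits CYT1 (cytochrome c1) and RIP1 (the Rieske iron-sulfur protein) fell in WT mRNA by 0.75 and by 0.48. Of the small subunits, QCR10 and QCR8 rose in WT footprints, and QCR6 and QCR7 were not called. The QCR8 call was lost after centring on the median gene. Mean QCR6 footprints went from 380 to 343 RPKM in WT, beside 511 to 467 RPKM for RIP1. QCR10 (YHR001W-A, chromosome VIII, 107826 to 108122) had 566 and 575 footprint RPKM with methionine and 1214 and 1115 RPKM without in WT, and 679 and 607 and then 1178 and 1013 RPKM in E85Q. D87E had 570 and 552 and then 1216 and 1118 RPKM. Every starved sample lay above every sample with methionine, and the WT change was 1.03 (SE 0.11, limma adjusted p = 6.9e-06). QCR10 mRNA was 268 and 257 and then 337 and 305 RPKM in WT, and 318 and 303 and then 461 and 493 RPKM in E85Q. D87E had 243 and 269 and then 360 and 302 RPKM, so the starved E85Q samples were the highest in mRNA but not in footprints. QCR7 (YDR529C, chromosome IV, 1496165 to 1496548) had the largest TE change of the 37 members in WT. Its TE was -0.06 and -0.13 with methionine and 0.85 and 0.89 without in WT, -0.02 and -0.10 and then 0.36 and 0.15 in E85Q, and -0.11 and -0.02 and then 0.72 and 0.78 in D87E. Starved WT and D87E samples lay above both starved E85Q samples, and the changes were 0.96 in WT (SE 0.09, limma adjusted p = 1.4e-05), 0.31 in E85Q (SE 0.09, limma adjusted p = 0.054) and 0.82 in D87E (SE 0.09, limma adjusted p = 2.3e-05). Behind them, QCR7 mRNA went from 556 and 585 to 334 and 284 RPKM in WT and from 652 and 601 to 680 and 671 RPKM in E85Q, while its footprints were 533 and 534 and then 602 and 526 RPKM in WT, and 643 and 560 and then 870 and 746 RPKM in E85Q.

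Cytochrome c comes from a pair of genes that moved in opposite directions. CYC1 (YJR048W, chromosome X, 526335 to 526664) encodes iso-1-cytochrome c, the main form of aerobic cells, and had 838 and 757 RPKM of mRNA with methionine and 350 and 265 RPKM without in WT, and 988 and 941 and then 610 and 598 RPKM in E85Q. D87E had 747 and 756 and then 451 and 327 RPKM. CYC1 footprints were 1595 and 1651 and then 974 and 691 RPKM in WT, and 2064 and 1814 and then 1547 and 1331 RPKM in E85Q. D87E had 1479 and 1579 and then 1159.7 and 888 RPKM. The starved samples were the low ones in all 3 genotypes, with E85Q the least low. CYC1 mRNA fell by 1.38 in WT (SE 0.16, limma adjusted p = 9.2e-06), by 0.67 in E85Q (SE 0.16, limma adjusted p = 0.0025) and by 0.97 in D87E (SE 0.16, limma adjusted p = 0.00015). CYC7 (YEL039C, chromosome V, 79636 to 79977) encodes iso-2-cytochrome c, a form known from low oxygen and stress. CYC7 mRNA was 2.50 and 2.05 and then 14.8 and 17.0 RPKM in WT, and 4.74 and 2.79 and then 25.6 and 27.8 RPKM in E85Q. D87E had 2.65 and 1.79 and then 18.1 and 18.4 RPKM. CYC7 mRNA rose by 2.37 in WT (SE 0.19, limma adjusted p = 6.5e-07), by 2.57 in E85Q and by 2.59 in D87E, and with a pseudocount of 0.1 the WT change was 2.75. CYC7 mRNA lay below 5 RPKM in every sample with methionine, so it passed the filter only through the starved samples. The rise and its p-value are thus not independent of the filter. CYC7 footprints were 5.29 and 6.45 and then 37.6 and 37.2 RPKM in WT, and 4.92 and 4.37 and then 44.9 and 44.2 RPKM in E85Q. D87E had 3.35 and 3.81 and then 38.6 and 44.9 RPKM. With methionine only the WT samples lay above 5 RPKM in footprints, and the mean over all samples with methionine lay below it. The footprint filter too was thus passed through the starved samples, and the CYC7 footprint and TE calls are not independent of it. CYC7 took 0.297 and 0.270% of the mRNA RPKM of the pair with methionine and 4.05 and 6.01% without in WT, 0.477 and 0.296% and then 4.04 and 4.44% in E85Q, and 0.354 and 0.236% and then 3.86 and 5.34% in D87E, so CYC1 remained the main form in every sample.

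Complex IV had a second pair of this kind, in the interchangeable subunit 5. COX5A (YNL052W, chromosome XIV, 531725 to 532186), the aerobic form, had 388 and 368 RPKM of mRNA with methionine and 291 and 275 RPKM without in WT, and 467 and 438 and then 477 and 459 RPKM in E85Q. D87E had 365 and 367 and then 326 and 276 RPKM. COX5B (YIL111W, chromosome IX, 155222 to 155765), the hypoxic form, had 28.0 and 23.3 and then 85.9 and 95.0 RPKM in WT, and 30.6 and 21.1 and then 71.1 and 63.7 RPKM in E85Q. D87E had 26.7 and 22.7 and then 95.1 and 103 RPKM. Every starved sample thus had more COX5B mRNA than every sample with methionine, with the starved E85Q samples the lowest of the starved. COX5B mRNA rose by 1.78 in WT (SE 0.15, limma adjusted p = 1.1e-06), by 1.37 in E85Q and by 1.96 in D87E, while COX5A mRNA fell by 0.42 in WT (SE 0.09, limma adjusted p = 0.0011), changed by 0.05 in E85Q, not called, and fell by 0.29 in D87E. COX5B footprints were 15.4 and 12.3 and then 46.3 and 40.7 RPKM in WT, and 12.5 and 10.8 and then 36.7 and 31.1 RPKM in E85Q. D87E had 11.9 and 13.1 and then 60.3 and 57.3 RPKM. COX5A footprints were 467 and 473 and then 558 and 481 RPKM in WT, and 601 and 503 and then 648 and 532 RPKM in E85Q. D87E had 440.1 and 457 and then 599 and 503 RPKM. COX5B thereby took 6.72 and 5.96% and then 22.8 and 25.7% of the mRNA of the pair in WT, 6.15 and 4.60% and then 13.0 and 12.2% in E85Q, and 6.80 and 5.83% and then 22.6 and 27.1% in D87E. Its share of the footprints was lower, 3.18 and 2.54% and then 7.66 and 7.80% in WT, 2.04 and 2.1% and then 5.36 and 5.52% in E85Q, and 2.63 and 2.80% and then 9.14 and 10.2% in D87E. How reads that match both genes of a pair were counted is not given in the sources used here, so reads of the more abundant form may be among those of the minor one.

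**Figure D2:**
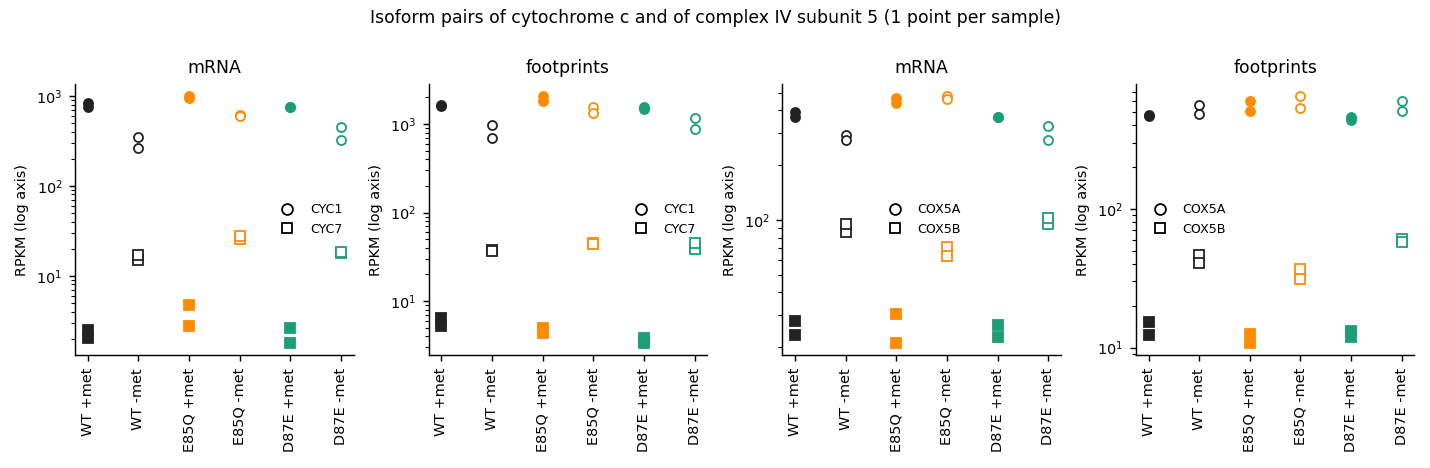
RPKM on a log axis of CYC1 and CYC7 and of COX5A and COX5B, in mRNA and footprints, with 1 point per sample, circles for CYC1 and COX5A, squares for CYC7 and COX5B, filled with methionine and open without. CYC7 and COX5B are higher in the starved samples of all 3 genotypes in mRNA and footprints, and CYC1 mRNA is lower in all 3.

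In complex IV as a whole, COX5A and COX5B included, WT mRNA and footprints diverged. Over the 9 genes, 4 fell and 2 rose in WT mRNA (median -0.15), but 6 rose and 1 fell (COX6) in footprints (median 0.72), and 7 rose in TE. In E85Q 5 rose in mRNA and 7 in footprints, and in D87E 3 rose and 2 fell in mRNA and 7 rose in footprints. In WT 26.7% of all tested genes fell and 60.2% rose in mRNA, 32.1% fell and 51.3% rose in footprints, and 16.7% rose in TE. The shares that rose in E85Q were 46.5% in mRNA and 44.8% in footprints. In D87E 60.7% rose and 25.5% fell in mRNA, and 47.3% rose in footprints. COX4 (YGL187C, chromosome VII, 149704 to 150171), a zinc-binding subunit on the matrix side, had 270.0 and 242 RPKM of mRNA with methionine and 175 and 174 RPKM without in WT, and 319 and 267 and then 364 and 329.6 RPKM in E85Q. D87E had 248 and 248 and then 219 and 199 RPKM. COX4 footprints were higher in the starved WT samples, 477 and 493 and then 602 and 607 RPKM, and were 560.4 and 504 and then 799.7 and 652 RPKM in E85Q. D87E had 459.7 and 476 and then 642 and 591 RPKM. The COX4 footprint change in WT was 0.32 (SE 0.11, limma adjusted p = 0.019), and the call was lost after centring (0.10) and without any 1 of the 4 WT libraries. COX4 TE was 0.82 and 1.02 with methionine and 1.78 and 1.79 without in WT, 0.81 and 0.91 and then 1.13 and 0.98 in E85Q, and 0.89 and 0.94 and then 1.55 and 1.56 in D87E. The WT samples of the 2 media stood well apart and the E85Q samples close together, with TE changes of 0.86 in WT (SE 0.10, limma adjusted p = 6.5e-05) and 0.20 in E85Q (SE 0.10, limma adjusted p = 0.28).

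COX7 (YMR256C, chromosome XIII, 778945 to 779127), a small membrane subunit, kept its mRNA within the spread of its samples in WT, at 385 and 442 and then 404 and 340.0 RPKM, a change of -0.15 (SE 0.15, limma adjusted p = 0.36). After centring on the median gene the COX7 change was -0.56 and was called, as 1 of 6 lower genes among the 9 of complex IV. On that scale 2025 of the 4888 tested genes were lower. Its footprints were 991 and 979 and then 1714 and 1527 RPKM in WT, and 1174 and 1073 and then 1638 and 1306 RPKM in E85Q. D87E had 983 and 971 and then 1812 and 1714 RPKM. The starved samples had the higher COX7 footprints in each genotype, and in starved WT COX7 led all members with a mean of 1621 RPKM, ahead of COX13 with 1259 RPKM and QCR10 with 1164 RPKM. Footprints of the small subunits COX13, COX9 and COX12 rose in WT by 0.94, 0.84 and 0.78. In WT mRNA COX13 rose by 0.42 (limma adjusted p = 0.00027), a call that centring on the median gene removed, and COX9 and COX12 changed by 0.22 and 0.07, neither called, COX12 lying at -0.33 after centring.

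Complex V, the ATP synthase, lost mRNA broadly in WT. Of its 14 genes 12 fell in WT mRNA and none rose (median -0.43), 5 fell and 2 rose in footprints (median -0.03), and 8 rose in TE. In E85Q 2 rose in mRNA (ATP15 and INH1) and 2 in footprints (ATP17 and INH1), and in D87E 11 fell in mRNA. In WT 26.7% of all tested genes fell and 60.2% rose in mRNA, and 32.1% fell and 51.3% rose in footprints. In WT TE 16.7% rose, and in D87E mRNA 25.5% fell. The shares that rose in E85Q were 46.5% in mRNA and 44.8% in footprints, above the part of complex V that rose. Both E85Q mRNA calls were lost after centring, which left ATP4 as the 1 gene called, lower, where 1698 of the 4888 tested genes were lower. All 4 E85Q calls were lost without the E85Q sample 625 with methionine, and without the starved sample 623. ATP1 (YBL099W, chromosome II, 37053 to 38690), the alpha subunit of the F1 head, had 597 and 635 RPKM of mRNA with methionine and 338 and 317 RPKM without in WT, and 567 and 564 and then 537 and 531 RPKM in E85Q. D87E had 577 and 599 and then 335 and 333 RPKM. ATP2 (YJR121W, chromosome X, 647607 to 649142), the beta subunit that holds the catalytic sites, had 1021 and 1019 and then 695 and 670.1 RPKM in WT, and 984 and 954 and then 982 and 945 RPKM in E85Q. D87E had 975 and 983 and then 703 and 709 RPKM. Starved WT and D87E samples were the low ones for both, and the E85Q samples of the 2 media lay close together. ATP1 mRNA fell by 0.91 in WT (SE 0.07, limma adjusted p = 4.4e-07) and changed by -0.08 in E85Q (limma adjusted p = 0.30), and ATP2 mRNA fell by 0.58 in WT and changed by -0.01 in E85Q (limma adjusted p = 0.92). The TE of ATP2 changed by 0.02 (SE 0.07) and that of ATP4, the subunit b of the peripheral stalk, by 0.06 (SE 0.08) in WT, so the footprints of ATP2, 959 and 965 and then 677 and 633 RPKM, fell with its mRNA.

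The head of the synthase holds several alpha and beta subunits for each central-stalk subunit (gamma, delta and epsilon, from ATP3, ATP16 and ATP15). The mean footprint RPKM of ATP1 and ATP2, divided by the mean of ATP3, ATP15 and ATP16, was 1.87 and 1.76 with methionine and 1.18 and 1.15 without in WT, 1.64 and 1.83 and then 1.40 and 1.47 in E85Q, and 1.86 and 1.83 and then 1.02 and 1.01 in D87E. The ratio was lower in every starved sample than in every sample with methionine, and least so in E85Q. In mRNA it was 2.92 and 2.75 and then 2.24 and 2.42 in WT, and 2.59 and 2.61 and then 2.36 and 2.18 in E85Q. These are ratios of RPKM, with no test.

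The largest TE changes of the synthase in WT were those of ATP17, ATP14 and INH1, while other short genes, TIM11 (0.24) and ATP20 (0.22), were not called in TE. After centring on the median gene 12 of the 14 genes were called higher in WT TE, where 1302 of the 4888 tested genes rose. The number of genes called thus depends on the scaling. ATP17 (YDR377W, chromosome IV, 1228611 to 1228916), subunit f of the membrane part, had 222 and 208 and then 199 and 206 RPKM of mRNA and 536 and 572 and then 867 and 802 RPKM of footprints in WT, with footprints of 660.5 and 536 and then 937 and 726 RPKM in E85Q and 524 and 520.3 and then 973 and 853 RPKM in D87E. Its TE rose by 0.67 in WT (SE 0.11, limma adjusted p = 0.00054). ATP14 (YLR295C, chromosome XII, 721999 to 722373), subunit h of the peripheral stalk, had 238 and 255 and then 170.0 and 159 RPKM of mRNA but 556 and 549 and then 598 and 541 RPKM of footprints in WT, and 292 and 281 and then 285 and 299 RPKM of mRNA with 676 and 593 and then 715 and 605 RPKM of footprints in E85Q. WT thus lost ATP14 mRNA and kept its footprints within the spread of the samples, and the TE rose by 0.62 (SE 0.12, limma adjusted p = 0.0016). INH1 (YDL181W, chromosome IV, 135179 to 135436) encodes the inhibitor that stops the synthase from hydrolysing ATP. Its mRNA was 174 and 167 and then 146 and 148 RPKM in WT, and 259 and 228 and then 299.9 and 279 RPKM in E85Q. D87E had 165 and 166 and then 156 and 174 RPKM. INH1 footprints were 205 and 241 and then 324 and 269 RPKM in WT, and 344 and 273 and then 497 and 390.4 RPKM in E85Q. D87E had 199 and 221 and then 328 and 351 RPKM. INH1 mRNA was higher in each E85Q sample than in any WT or D87E sample.

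In WT, 21 of 37 members were both lower in mRNA and higher in TE on starvation, against 15 in D87E and 0 in E85Q, as the plot of mRNA against TE changes shows. The mRNA value enters TE with the opposite sign, so measurement error alone pushes the 2 changes apart. The 0 in E85Q was fixed by the lack of any TE call there. No count in this paragraph was made over all tested genes, so none shows a pattern particular to the members. Of the 28 members that fell in WT mRNA, 13 also fell in footprints, 12 were not called there, and QCR8, COX4 and INH1 rose. These 3 footprint calls were all lost after centring on the median gene (0.11, 0.10 and 0.19) and each also when single WT libraries were left out, so no member that fell in WT mRNA rose in footprints under every setting. Of the 24 that fell in D87E mRNA, 11 fell in footprints, 12 were not called and COX4 rose, but the COX4 mRNA call in D87E was lost when single libraries were left out. The size of the mRNA change exceeded that of the footprint change in 29 of 37 members in WT, 21 in D87E and 8 in E85Q, and the TE change was above 0 in 36 members in WT, 34 in D87E and 30 in E85Q.

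**Figure D3:**
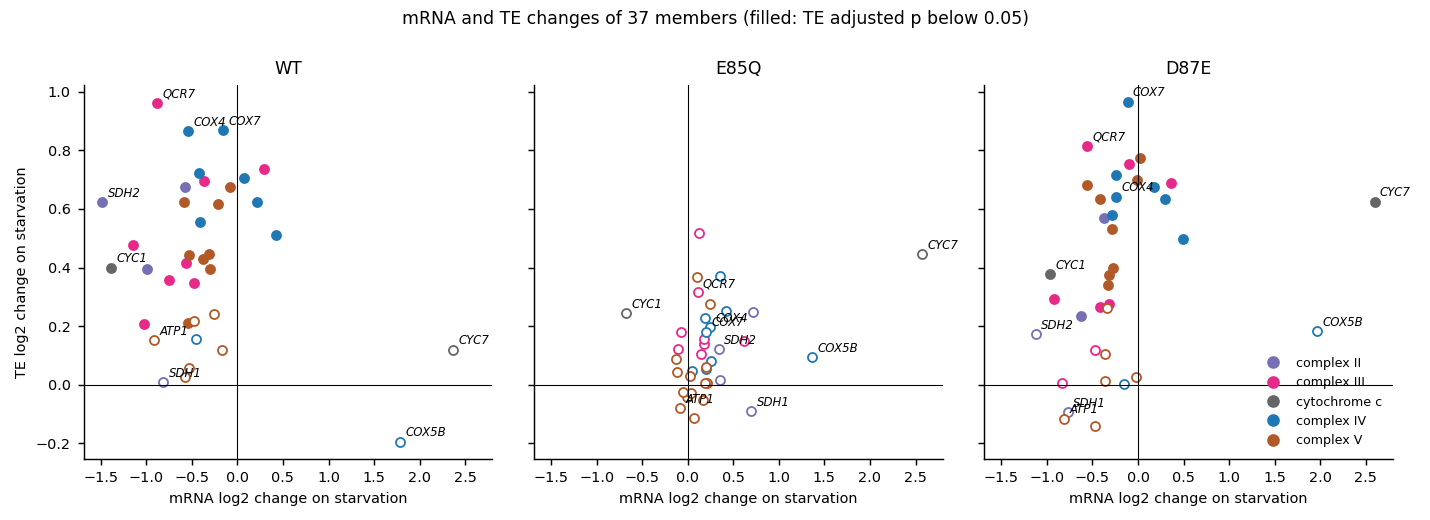
Starvation change in mRNA (x axis, log2) against the change in TE (y axis, log2) of the 37 members in WT, E85Q and D87E, coloured by complex, with filled points for a TE adjusted p below 0.05. Most WT and D87E points lie at the upper left, lower in mRNA and higher in TE, and no E85Q point is filled.

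With methionine E85Q and WT differed in few of these genes. In mRNA 6 members were higher in E85Q and none lower, where 22.4% of all tested genes were higher and 6.2% lower, and limma counted 11 higher and 1 lower at an unadjusted p below 0.05. The 6 were QCR8, COX5A, COX9, ATP20, TIM11 and INH1, with differences of 0.26 to 0.51, INH1 the highest (SE 0.08, limma adjusted p = 0.0039). After centring on the median gene INH1 was the 1 member higher, and SDH1 and ATP1 were lower, where 315 of the 4888 tested genes were higher and 670 lower. Without the WT sample 600 with methionine, or without the E85Q sample 623 with methionine, 1 member was higher. In footprints no member was called, where 4.07% of all tested genes were higher and 3.54% lower, and limma counted 2 higher and 1 lower at an unadjusted p below 0.05. In TE no member was called either, where 0.0205% were higher and 0.123% lower, and limma counted none higher and 1 lower at an unadjusted p below 0.05.

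Without methionine, E85Q cells had more mRNA of nearly the whole set than WT cells. In mRNA 35 members were higher in E85Q and COX5B was lower, where 15.7% of all tested genes were higher and 45.5% lower, and the median difference was 0.72 against -0.17. COX13, at 0.13 (SE 0.07), was not called. The difference was largest in complex II, from 1.34 to 1.94, SDH2 being the highest (SE 0.08, limma adjusted p = 1.8e-07), and every gene of complexes II, III and V and both cytochrome c genes were higher. In footprints 20 members were higher and COX5B was lower, where 20.6% of all tested genes were higher and 32.5% lower, with a median of 0.38 against -0.07. The footprint calls covered 4 of 4 genes in complex II, 7 of 8 in III and 7 of 14 in V, but 1 of 9 in IV (COX6). After centring 28 members were higher in footprints and none lower, among them 4 of 4 in II, 7 of 8 in III, 13 of 14 in V and 2 of 9 in IV. On that scale 1542 of the 4888 tested genes were higher and 1104 lower. In TE 21 members were lower in E85Q and none higher, where 12% of all tested genes were lower and 24% higher, with a median of -0.38 against 0.06, and none was higher by limma at an unadjusted p below 0.05. The TE count was 5 without the starved E85Q sample 625 and 10 without either starved WT sample, and the COX5B calls were lost when single libraries were left out.

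The starvation responses themselves were compared by testing the change in E85Q minus the change in WT. In mRNA the response of 26 members was higher in E85Q and that of none lower, where 11.8% of all tested genes were higher and 48.6% lower, with a median difference of 0.57 against -0.28, and limma counted 29 higher and none lower at an unadjusted p below 0.05. Both cytochrome c genes are split by this test: the CYC1 difference was 0.71 (SE 0.22, limma adjusted p = 0.018) and that of CYC7 0.20 (SE 0.27, limma adjusted p = 0.54). The highest differences were those of SDH2, 1.83 (SE 0.12, limma adjusted p = 7.9e-06), and SDH1, 1.51 (SE 0.10, limma adjusted p = 7.9e-06), followed by SDH3 (1.34) and SDH4 (1.29). The highest in the other complexes were QCR2 in complex III with 1.07, ATP1 in complex V with 0.83 and COX4 in complex IV with 0.79. By complex the calls numbered 4 of 4 in II, 6 of 8 in III, 1 of 2 for cytochrome c, 4 of 9 in IV and 11 of 14 in V. In footprints 14 members were higher and none lower, where 13.8% of all tested genes were higher and 27.7% lower, with a median of 0.21 against -0.13, and 15 were higher and none lower at an unadjusted limma p below 0.05. They included all 4 genes of complex II, 5 of complex III and 1 of complex IV (COX6). In TE 8 members were lower and none higher, where 4.44% of all tested genes were lower and 17.4% higher, with a median of -0.30 against 0.13, and 14 were lower and none higher at an unadjusted limma p below 0.05. These were SDH2, QCR7, QCR10, COX4, COX5A, COX8, ATP7 and ATP14, with differences of -0.45 to -0.67. The TE count ranged from 2 to 12 when single libraries were left out, being 2 without the WT sample 600 with methionine, the starved WT sample 172, the E85Q sample 623 with methionine or the starved E85Q sample 625, 3 and 4 without the other WT samples (600 starved and 172 with methionine), and 12 without the starved E85Q sample 623; QCR7 and COX4 were called in each.

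Between D87E and WT no member was called in any measure, medium or in the difference of responses. In mRNA this was against 0% of all tested genes higher and 0% lower with methionine, 0% and 0% without, and 0% and 0% for the response. In footprints the background was 0% higher and 0.0614% lower with methionine, 0% and 0% without, and 0% and 0% for the response, and in TE it was 0% and 0.143%, 0% and 0.0205%, and 0% and 0%. At an unadjusted p below 0.05 limma counted no member with methionine, 5 higher and none lower without, and 5 higher and none lower for the response in mRNA. In footprints it counted none higher and 1 lower, 2 higher and none lower, and 3 higher and none lower, and in TE none higher and 1, 2 and 1 lower. The response differences (D87E minus WT) ran from -0.10 for ATP15 to 0.41 for CYC1 (SE 0.22) in mRNA, from -0.17 for ATP1 to 0.73 for CYC7 (SE 0.14, limma adjusted p = 0.215) in footprints, and from -0.45 for SDH2 (SE 0.15, limma adjusted p = 0.417) to 0.51 for CYC7 in TE.

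Summed over the 37 members, the share of all mRNA RPKM was 1.66 and 1.62% with methionine and 1.44 and 1.35% without in WT, 1.87 and 1.75% and then 2.22 and 2.17% in E85Q, and 1.58 and 1.61% and then 1.55 and 1.42% in D87E. In footprints it was 1.96 and 1.95% and then 2.18 and 2.08% in WT, 2.19 and 2.12% and then 2.89 and 2.71% in E85Q, and 1.90 and 1.93% and then 2.37 and 2.22% in D87E. The starved samples thus held the larger footprint share in each genotype, but the direction rests on the denominator. With the ribosomal protein genes left out of the sum, the footprint share went from 2.82 and 2.86% to 2.26 and 2.13% in WT, from 3.34 and 3.19% to 3.08 and 2.93% in E85Q, and from 2.77 and 2.82% to 2.47 and 2.28% in D87E. The mRNA share on that base went from 2.35 and 2.34% to 1.47 and 1.38% in WT, from 2.74 and 2.57% to 2.37 and 2.36% in E85Q, and from 2.27 and 2.32% to 1.61 and 1.46% in D87E. On either base the starved E85Q samples held a larger share than the starved WT samples in both mRNA and footprints.

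The complexes took different parts in this, as the plot of shares by complex shows. Complex II went from 0.0621 and 0.0617% to 0.0357 and 0.0342% of mRNA RPKM in WT, from 0.0679 and 0.0616% to 0.0999 and 0.0986% in E85Q, and from 0.0568 and 0.0597% to 0.0412 and 0.0391% in D87E. Its footprint share went from 0.0805 and 0.0787% to 0.0599 and 0.0590% in WT and from 0.0895 and 0.0819% to 0.145 and 0.140% in E85Q. Complex IV went up in footprints in each genotype, from 0.540 and 0.531% to 0.827 and 0.791% in WT, from 0.617 and 0.597% to 0.943 and 0.854% in E85Q, and from 0.518 and 0.522% to 0.897 and 0.841% in D87E. With the ribosomal protein genes left out of the sum, the complex IV footprint share was 0.774 and 0.778% and then 0.859 and 0.811% in WT and 0.754 and 0.761% and then 0.935 and 0.864% in D87E. In E85Q it was 0.941 and 0.895% and then 1.01 and 0.922% on that base, and the media overlapped. The complex II mRNA share on that base was 0.0878 and 0.0890% and then 0.0365 and 0.0349% in WT, and 0.0996 and 0.0903% and then 0.106 and 0.107% in E85Q, the direction it had with those genes included.

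**Figure D4:**
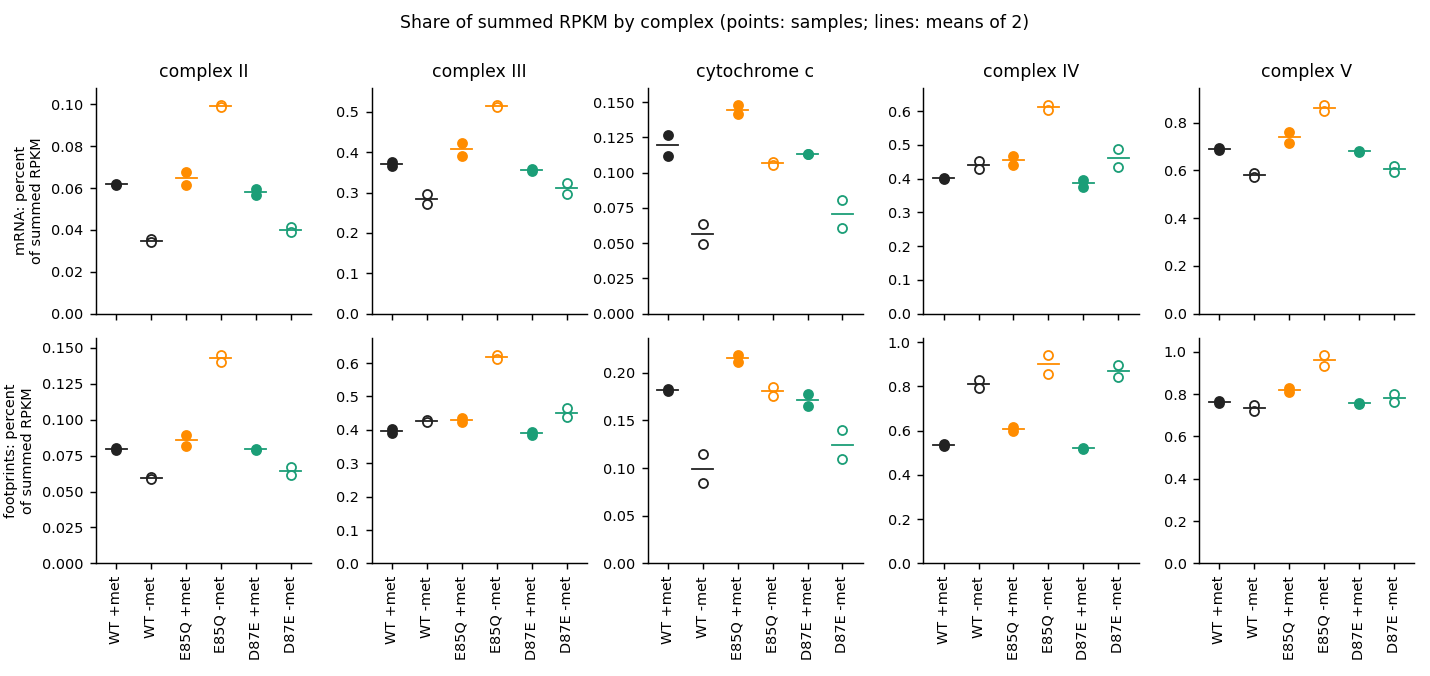
Percent of summed RPKM taken by each complex in mRNA (upper row) and footprints (lower row), with 1 point per sample, lines for the mean of 2 samples, filled points with methionine and open points without. The complex II share is lower in starved WT and D87E samples and higher in starved E85Q samples, and the complex IV footprint share is higher in the starved samples of all 3 genotypes.

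Footprint levels within a complex spread apart on starvation in WT and D87E. In complex III the highest footprint RPKM of a member was 2.12 and 2.08 times the lowest with methionine and 5.26 and 4.88 times without in WT, and 2.32 and 2.1 and then 5.27 and 4.96 times in D87E. QCR10 was the highest there in every sample, so much of this widening rests on that gene. In starved WT its mean was 1164 RPKM, and that of QCR7, the next highest, was 564 RPKM. In complex IV, with the minor form COX5B left out, the ratio was 2.12 and 2.28 and then 3.89 and 4.11 in WT, and 2.23 and 2.33 and then 3.94 and 4.26 in D87E. In complex II it was 2.57 and 2.68 and then 3.75 and 3.99 in WT, and 2.71 and 2.61 and then 4.58 and 4.47 in D87E. Complex V, without ATP1, ATP2 and INH1, had 2.96 and 3.13 and then 4.27 and 3.86 in WT, and 2.8 and 3.11 and then 4.0 and 4.22 in D87E. In E85Q the footprint ratio was 1.91 and 2.18 and then 2.67 and 2.47 in complex III and 2.17 and 2.29 and then 2.53 and 2.45 in complex IV, but 3.1 and 2.85 and then 3.1 and 2.7 in complex II and 3.16 and 2.97 and then 3.45 and 2.86 in complex V, where the media overlapped. The mRNA ratios did not all follow this. In complex IV the mRNA ratio also widened in WT, from 2.28 and 2.76 to 3.34 and 3.20. The D87E values of complex IV were 2.12 and 2.76 and then 2.64 and 2.85, where the media overlapped. In complex III the mRNA ratio narrowed in WT, from 6.9 and 8.94 to 6.02 and 5.44, and in complex II it narrowed in E85Q, from 5.08 and 4.28 to 3.64 and 3.67. None of these ratios was tested.

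The members are short genes, with a median length of 447 bases (180 to 1923, over the annotated gene, introns included) against 1248 bases over the tested genes with a length. Across the 37 members Spearman's rho between length and the TE change on starvation was -0.58 in WT, -0.45 in E85Q and -0.76 in D87E, and across the 4844 other genes it was -0.39, -0.20 and -0.46. These are correlations across genes that share the libraries, and genes are not independent replicates. The 22 members under 500 bases had a median TE change of 0.59 in WT against 0.21 in the 15 longer members, and the other genes had 0.27 (465 short genes) against -0.16 (4379 longer genes). In D87E the members had 0.63 against 0.12 and the other genes 0.31 against -0.27, and in E85Q the members had 0.17 against 0.09 and the other genes 0.09 against -0.01. In each genotype, members thus had higher medians than other genes within each length class, with the smallest gap in E85Q. The part of length in the TE changes was not tested.

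**Figure D5:**
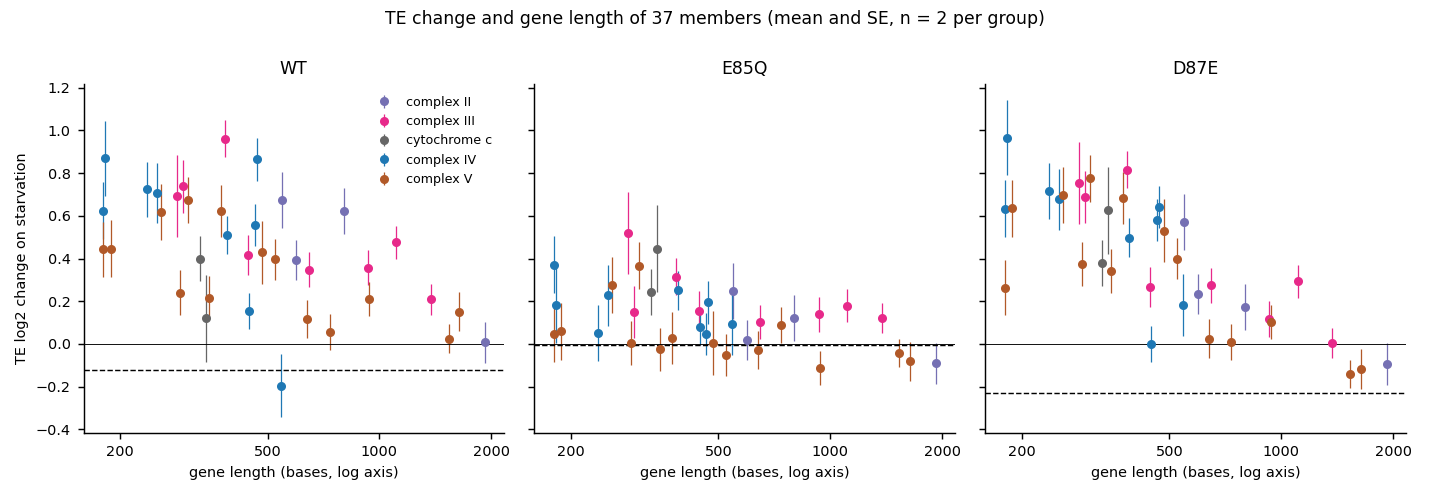
Change in TE on starvation (y axis, log2, with SE, n = 2 per group) against gene length (x axis, bases, log axis) of the 37 members in WT, E85Q and D87E, coloured by complex, with a dashed line for the median of all tested genes. The shortest members have the higher TE changes in WT and D87E, and the longest, such as SDH1, ATP1 and ATP2, lie close to 0.

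Genes that serve the complexes without being core subunits did not move as a block with them in WT mRNA, and their counts are to be read against the many genes that rose. Of 41 assembly factors of complexes II to V, 17 rose and 9 fell, with 10 and 16 in E85Q, where 60.2% of all tested genes rose and 26.7% fell in WT mRNA and 46.5% rose and 30.3% fell in E85Q. The WT split was 5 higher and 22 lower after centring on the median gene. After centring, 1973 of the 4888 tested genes rose and 2025 fell in WT mRNA, and 1967 rose and 1698 fell in E85Q mRNA. The centred counts of this and the following lists are to be read against these. SDH6, an assembly factor of complex II, rose by 1.74 in WT and by 1.45 in E85Q, and BCS1, which inserts the Rieske protein into complex III, fell by 0.81 and by 0.86. Of 12 nuclear activators of mitochondrial respiratory messages 10 rose and none fell in WT (8 and 2 after centring), with 7 and 3 in E85Q. CBP1, which stabilizes the message of cytochrome b, rose by 2.09 in WT (SE 0.07, limma adjusted p = 1.0e-09) and by 0.33 in E85Q. Of 10 genes of ubiquinone synthesis 9 rose and none fell in WT (5 and 2 after centring), with COQ4 up by 1.41, and 7 rose and 1 fell in E85Q. Beside the 60.2% and 46.5% of all tested genes that rose, nothing particular to these lists is read from such counts. Of 8 heme synthesis genes 3 rose and 5 fell in WT (1 and 5 after centring) and 2 rose and 4 fell in E85Q. HEM1, the first enzyme of that pathway, fell by 1.42 in WT and by 0.38 in E85Q, and HEM14, a late enzyme, rose by 0.58 and by 0.75.

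Of 5 mitochondrial dehydrogenases that feed electrons into the chain, 2 rose and 3 fell in WT and 3 rose and 2 fell in E85Q, against the same background of 60.2% higher in WT and 46.5% in E85Q. GUT2, which oxidizes glycerol 3-phosphate, rose by 2.0 and by 1.73, and DLD1, which oxidizes D-lactate, fell by 1.03 and by 0.38. Of 4 ADP/ATP and phosphate carriers 1 rose and 2 fell in WT (1 and 3 after centring) and in E85Q. PET9, the main ADP/ATP carrier, fell by 1.46 in WT (SE 0.08, limma adjusted p = 2.8e-08), from a mean of 649.7 to 235 RPKM, and by 0.54 in E85Q, and PIC2, a carrier of copper and phosphate, rose by 1.69 and by 1.22. Of 6 supercomplex and regulatory proteins 4 rose and 1 fell in WT (3 and 2 after centring), among them COX26, which sits in the supercomplex of complexes III and IV (up by 2.22), and ATP19, a dimer-specific subunit of the synthase (down by 0.52). In E85Q 4 of them rose and none fell.

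Of 8 transcriptional regulators of respiratory genes 6 rose and 1 fell in WT (3 and 2 after centring), near the 60.2% of all tested genes that rose in WT, and 6 rose and 1 fell in E85Q (5 and 2 after centring), where 46.5% rose. HAP4, the activating subunit of the HAP complex that turns on many respiratory genes, was the 1 that fell, by 2.34 in WT (SE 0.07, limma adjusted p = 7.5e-10), from a mean of 61.3 to 11.3 RPKM, and by 1.04 in E85Q, from 62.8 to 30.0 RPKM. HAP1, a heme-responsive activator of CYC1 and CYC7, rose by 1.75 and by 0.87. Of 6 mitochondrially encoded subunits with values, 3 rose in WT and none fell, and none was called in WT after centring or in E85Q. COX3, a core subunit of complex IV, changed by 0.33 in WT and by -0.07 after centring.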

How the data were processed

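The deposited values are RPKM per gene, made by the authors with Bowtie 1.1.2 and TopHat2 2.1.1 on sacCer3, per the submitters' processing notes, in a table for mRNA and another for footprints of 18 to 34 nucleotides in which part of each gene was masked, per the file names and labels. Which positions were masked is not given in the sources used here. Each table lists 7133 genes, of which 829 have no values. Reads per library were estimated from the steps between low RPKM values, assuming 33 masked bases per gene. With the best depth found, 68.5 to 80.0% of values of up to 20 reads lay within 0.05 of a whole number, so no count test was run. Genes with a mean of at least 5 RPKM in both assays were tested on log2(RPKM + 1) with limma 3.58.1 (R 4.3.3, 6 group means, variance trend, all 12 libraries of an assay sharing 1 estimate of the spread), for 9 comparisons in each of mRNA, footprints and TE, two-sided, with Benjamini-Hochberg adjustment over the 4888 genes and a threshold of 0.05. The code was tested on simulated data. Other steps used Python 3.11.15 with pandas 2.3.3, scipy 1.17.1 and matplotlib 3.10.9. Positions come from RefSeq's sacCer3 annotation, and the pathway lists and complexes from textbook knowledge. Members and lists were chosen with earlier results of these data known.

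Values in every sample are given, by rule, for the members of each complex with the largest or smallest starvation change in WT mRNA and TE or the largest E85Q difference, for the isoform pairs and for INH1. Of each pathway list the genes with the largest called rise and fall are named. Alternatives were pseudocounts of 0.1 and 10, no filter, median-centred libraries, no variance trend, a fit of the compared groups alone, leaving out each sample, and the strain as a replicate block. Samples with the same number come from the same strain with and without methionine, per the labels, so the numbers pair the samples. The correlation of their deviations from the group means was -0.18, 0.17 and -0.05 in mRNA, -0.02, 0.41 and 0.05 in footprints and -0.02, 0.37 and -0.04 in TE for WT, E85Q and D87E.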

Additional observations from a re-analysis of the deposited data

Results flagged for a closer look

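The starvation response differed between E85Q and WT, by limma's test of the difference itself (adjusted p below 0.05), for 26 members in mRNA, 14 in footprints and 8 in TE. The mRNA and footprint calls were all higher in E85Q, and the TE calls all lower. Of all tested genes 11.8% were higher and 48.6% lower in mRNA, and 13.8% and 27.7% in footprints. In TE 17.4% were higher and 4.44% lower. Without regard to direction, the counts in footprints and TE do not set the members apart from all tested genes. The cause was not tested. In mRNA the E85Q change minus the WT change was 1.51 for SDH1, 1.83 for SDH2, 1.34 for SDH3 and 1.29 for SDH4 in complex II. In complex III it was 0.93 for CYT1, 0.62 for RIP1, 0.92 for COR1, 1.07 for QCR2, 0.74 for QCR6 and 0.99 for QCR7, and for cytochrome c it was 0.71 for CYC1. In complex IV it was 0.79 for COX4, 0.46 for COX5A, 0.71 for COX6 and 0.62 for COX8. In complex V it was 0.83 for ATP1, 0.57 for ATP2, 0.61 for ATP3, 0.58 for ATP16, 0.51 for ATP15, 0.41 for ATP4, 0.47 for ATP7, 0.61 for ATP14, 0.42 for ATP20, 0.45 for TIM11 and 0.46 for INH1. In footprints the difference was 1.41 for SDH1, 1.32 for SDH2, 0.96 for SDH3 and 0.86 for SDH4, then 0.71 for CYT1, 0.38 for RIP1, 0.83 for COR1, 0.78 for QCR2 and 0.48 for QCR6. It was 0.53 for CYC7, 0.64 for COX6, 0.60 for ATP1, 0.50 for ATP2 and 0.44 for ATP4. CYC7 passed the filter only through its starved samples, so its call is not independent of the filter. In TE it was -0.50 for SDH2, -0.65 for QCR7, -0.59 for QCR10, -0.67 for COX4, -0.51 for COX5A, -0.67 for COX8, -0.45 for ATP7 and -0.59 for ATP14.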

How the results depend on the processing

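With libraries centred on their median gene, mRNA counts were 2 higher for starvation in WT, 3 lower in E85Q and 2 higher in D87E, 1 higher and 2 lower for E85Q against WT with methionine and 0 lower without, footprint counts were 1 lower in starved E85Q and 0 lower for E85Q against WT without methionine, and 1 member was higher in TE in E85Q. Over the 4888 tested genes these centred counts were, in the same order, 1973, 1698, 1998, 315, 670, 1281, 1584, 1104 and 128. Centring turned the sign of a called mRNA change on either scale for QCR10 in WT (-0.11) and D87E (-0.033), COX12 in WT (-0.33), COX9 in D87E (-0.10), ATP17 in D87E (-0.37), COX3 in WT (-0.072) and D87E (-0.018), and the response difference of COX13 (0.31). Without the filter, E85Q against WT gave 2 higher in mRNA with methionine and 0 lower without, also 0 lower in footprints, and TE gave 1 lower in D87E (ATP2). A pseudocount of 10 gave 1 lower in E85Q footprints (CYC1), and in TE 1 lower in WT (COX5B), 2 higher in E85Q (QCR7 and CYC7) and 1 lower in D87E. Without the variance trend 1 member was lower in footprints and 1 higher in TE (ATP17) in E85Q. Fitting the compared groups alone gave 10 higher for E85Q against WT with methionine, 1 lower in E85Q footprints and 5 lower for the TE response. With the strain as a replicate block, 1 was lower in E85Q footprints and 1 lower for the footprint response (COX12), 12 became 17 higher in D87E footprints, and of 624 single-gene values 5 lost and 17 gained a call. Leaving out 1 sample gave, for E85Q against WT with methionine in mRNA, 1 to 9 higher and 0 to 1 lower; without methionine 0 to 1 lower in mRNA, 0 to 1 in footprints and 5 to 22 in TE; for starved E85Q, 8 to 14 higher and 1 to 2 lower in mRNA and 10 to 23 higher and 0 to 1 lower in footprints; and for the response, 0 to 1 lower in mRNA, 0 to 2 in footprints and 2 to 12 in TE. The causes were not tested. Depth limits CYC7 most, at 15 reads in its lowest mRNA library.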
